A study of Rattus norvegicus with 28 samples.

Results

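Atf5, Sesn2, Gadd45a and Eif4ebp1 are 4 genes of the integrated stress response, taken by Ensembl identifier from the 32883 rat genes counted by RNA-Seq in tibialis anterior muscle. They were selected on their values in muscle overexpressing the vitamin D receptor (VDR) against the control leg of the same rat. Their values in that comparison, and in any that uses the same legs, are therefore a description without a test. The muscles in which VDR was targeted for knock-down, and their controls, were outside that comparison and were tested. The 4 genes were chosen with earlier results of these data known, so these tests are not shown to be wholly independent of the choice.

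Plasmid was injected into the muscle of male Wistar rats, 8 weeks old before a week of acclimatisation, and driven into the fibres by electric pulses (in vivo electrotransfer). Muscles were collected 10 days later after an overnight fast, and all rats received the analgesic carprofen. In 7 rats (416 to 422) the VDR construct, named mVDR in the labels, was put into the right leg (VDR-OE), with empty vector in the left. In 7 others (423 to 429) the right leg received a short hairpin RNA against VDR (VDR-KD) and the left leg a scramble hairpin RNA, giving 28 muscles in all. The VDR status labels call the first arm VDR knock-in and the second VDR knock-out, with the control legs as sham. The construct under study was always in the right leg, so side and construct cannot be told apart, and each arm has its own rats and its own kind of control plasmid. Electrotransfer reaches only part of the fibres of a whole muscle, and in bulk RNA fewer cells of a type and less RNA per cell cannot be told apart.

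The integrated stress response starts when a kinase such as PERK or GCN2 phosphorylates the translation factor eIF2. Most protein synthesis then slows, while the messages of a few transcription factors, ATF4 and ATF5 among them, are translated more. ATF4 and its partners raise genes for amino acid synthesis and transport, for tRNA charging and for restraint of growth, and in skeletal muscle the response is known from amino acid shortage and mitochondrial disease. Atf5 encodes such a transcription factor, Sesn2 a leucine-binding inhibitor of the growth kinase complex mTORC1, Gadd45a a growth arrest protein also raised in muscle atrophy, and Eif4ebp1 the repressor 4E-BP1 that holds the cap-binding protein eIF4E.

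Total counts ranged from 36684220 to 46312167 per muscle, and the smallest count of any of the 4 genes in any muscle was 278. Vdr was checked first. It reached 201 to 5937 normalised CPM (counts scaled to the effective size of each library) in 6 VDR-OE legs against 1.91 to 6.73 CPM in the empty vector legs. Counts per gene do not separate reads of the construct from those of the rat's own Vdr. The VDR-OE library of rat 419, labelled knock-in, held 5.45 CPM against 5.74 CPM in its control leg, so this leg went against its label. In the VDR-KD muscles, labelled knock-out, Vdr ranged from 1.94 to 6.53 CPM against 1.39 to 8.11 CPM in scramble legs. The within-rat log2 difference was -0.26 (SE 0.40, adjusted p = 0.839, edgeR quasi-likelihood test), so a fall of Vdr was not detected there. None of the 10 myofibre markers listed had an identifier paired with its symbol, so the tissue label could not be checked against them.

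The bases upstream of the annotated start are shown for Sesn2 and Gadd45a, the pair of the 4 with the highest correlation over the 28 muscles, so that the motifs found in them can be read in place. They are from RefSeq on build GRCr8, which differs from the build of the counts, and lie at chr5:150005256-150005505 (Sesn2) and chr4:97486800-97487049 (Gadd45a), both on the minus strand. Capitals mark matches to the motifs named in the next paragraph.
Sesn2: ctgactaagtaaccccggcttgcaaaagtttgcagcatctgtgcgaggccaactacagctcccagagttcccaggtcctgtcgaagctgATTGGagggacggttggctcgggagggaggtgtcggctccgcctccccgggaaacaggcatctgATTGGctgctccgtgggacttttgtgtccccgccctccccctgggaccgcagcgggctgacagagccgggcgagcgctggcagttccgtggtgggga
Gadd45a: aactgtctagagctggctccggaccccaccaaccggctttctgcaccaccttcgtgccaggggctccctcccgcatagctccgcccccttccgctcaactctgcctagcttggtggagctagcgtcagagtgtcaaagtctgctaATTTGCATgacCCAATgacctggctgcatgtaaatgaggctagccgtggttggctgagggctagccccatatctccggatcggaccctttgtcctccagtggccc

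The table held windows of 250 bases before to 50 after the start for 3 of the 4 genes, Atf5, Sesn2 and Gadd45a, and both strands were searched. The composite site of C/EBP and ATF factors, TGATGNAA, was in none of these 3 windows and in 3.82% of 27457 rat windows. The NF-Y box CCAAT was present in 2 copies in Sesn2, both on the opposite strand and so printed as the reverse complement ATTGG. Gadd45a held 1 copy, against 37.7% of all windows with at least 1. The octamer ATTTGCAT was present in Gadd45a, beside the CCAAT box without overlapping it, and in 1.64% of all windows. The cyclic AMP element TGACGTCA (1.91% of windows) was in none of the 3. The same held for the DR3 element, the direct repeat with 3 bases between its arms that VDR is known to bind (0.102% of windows). Among the 46 genes with a window from a list of 52 eIF2 kinases, eIF2 subunits and ATF4 targets, 9 held TGATGNAA. A match is a run of letters, not a binding site, and a window without one says nothing of sites elsewhere.

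All 4 genes stood highest in the empty vector legs, while the VDR-OE legs lay within or near the ranges of the scramble and VDR-KD legs. CPM normalised across the 28 muscles are given gene by gene, as the lowest, median and highest of the 7 legs of a group. Counts carry no gene length here, so levels were not compared between genes. Over all genes tested, the VDR-OE legs lay wholly below the empty vector legs for 191 of 14526 (1.31%). No such share was computed for other pairs of groups or for counts of single legs, so nothing is read from those.

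**Figure D1:**
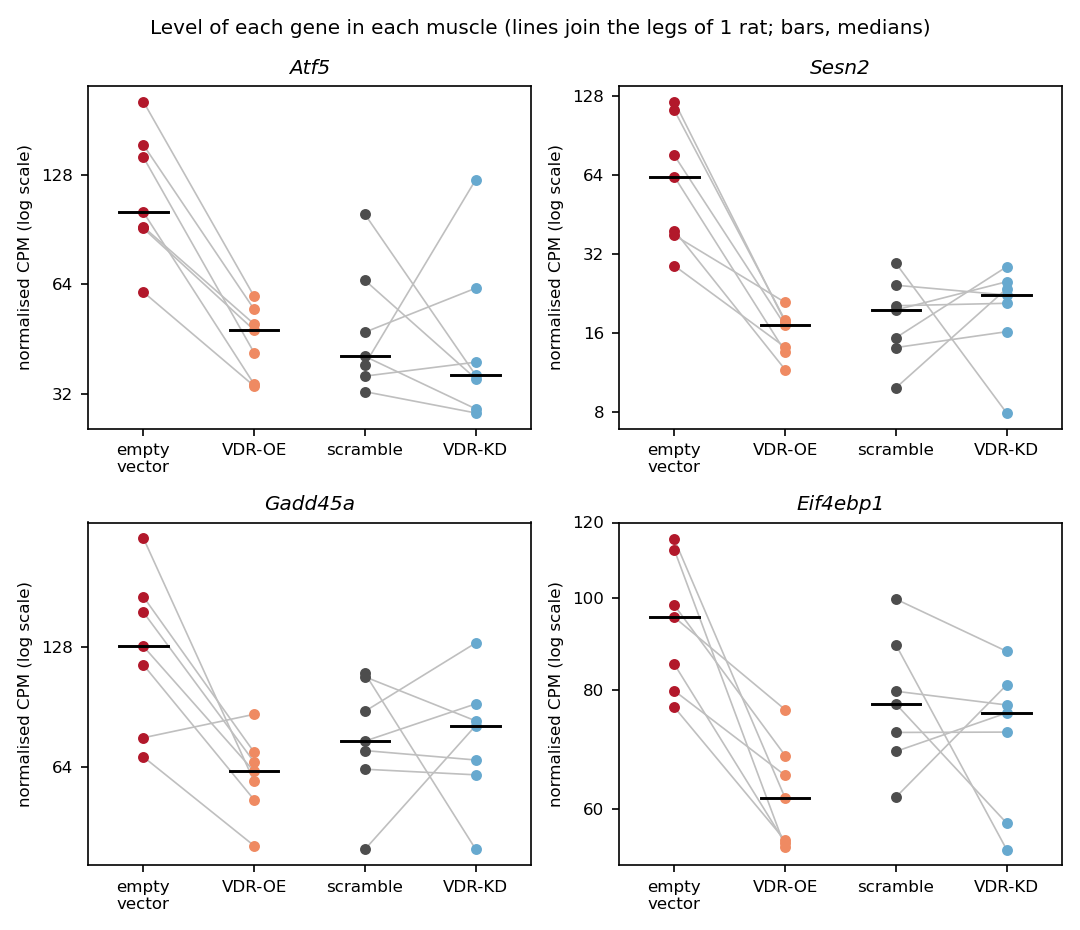
Normalised CPM (vertical axis, log scale) of each gene in the 28 muscles by group, with grey lines joining the legs of 1 rat and black bars at the medians. The empty vector legs sit above the VDR-OE legs without overlap for Atf5, Sesn2 and Eif4ebp1, and the other 3 groups share a range.

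Atf5, the transcription factor, had 60.9, 101 and 203 CPM in empty vector legs and 33.6, 47.9 and 59.3 CPM in VDR-OE legs. Scramble legs had 32.5, 40.6 and 99.7 CPM, and VDR-KD legs 28.4, 36.05 and 124 CPM. The lowest empty vector leg was thus above the highest VDR-OE leg, and 4 of 7 empty vector legs were above every scramble leg. Counts were 2014 of about 44920000 in that empty vector leg (rat 417) and 2758 of about 41950000 in that VDR-OE leg (rat 420). The gap between these groups thus rests on the normalisation factors. The means were 121 ± 48.5 CPM in empty vector and 45.8 ± 9.9 CPM in VDR-OE legs (SD, n = 7 each). The log2 difference fitted with the rat as a block was -1.32 (SE 0.14), a level 0.40 times that of the control leg.

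Atf5 was lower in the VDR-OE leg of 7 of 7 rats, with within-rat log2 ratios from -1.78 in rat 421 to -0.86 in rat 417. Rat 419, whose Vdr was not raised, had a ratio of -0.93, inside the range of the other rats.

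Sesn2, the amino acid sensor, showed the largest difference of the 4 between VDR-OE and empty vector legs. Empty vector legs had 28.9, 63.2 and 122 CPM and VDR-OE legs 11.65, 17.2 and 21.0 CPM. In scramble legs the values were 9.92, 19.65 and 29.6 CPM, and in VDR-KD legs 7.97, 22.4 and 28.7 CPM. The 7 empty vector legs lay above every VDR-OE and every VDR-KD leg, and 6 of them above every scramble leg. Counts were 957 of about 44920000 in the lowest empty vector leg (rat 417) and 951 of about 45100000 in the highest VDR-OE leg (rat 422). The highest VDR-KD leg (rat 427) had 1396 of about 38000000. The width of the gap to the VDR-OE legs, and the order against the VDR-KD legs, thus rest on the normalisation factors. The mean was 68.7 ± 37.2 CPM in empty vector legs against 16.2 ± 3.17 CPM in VDR-OE legs (SD, n = 7 each). The fitted log2 difference was -1.92 (SE 0.24), a level 0.26 times that of the control leg.

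The within-rat log2 ratio of Sesn2 was -2.79 in rat 416, -2.65 in rat 420, -2.21 in rat 418, -2.15 in rat 421, -1.76 in rat 419, -1.03 in rat 417 and -0.85 in rat 422. The order was close to that of the control legs, which are themselves part of the ratio. Rats 416 and 420 had the highest empty vector legs (122 and 113 CPM), and rats 417 and 422 the lowest (28.9 and 37.8 CPM), whereas the VDR-OE legs spanned 1.80-fold from lowest to highest against 4.22-fold in the empty vector legs.

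Gadd45a, the growth arrest gene, had 67.7, 128.3 and 240 CPM in empty vector legs and 40.5, 62.3 and 86.6 CPM in VDR-OE legs. Scramble legs had 39.7, 74.2 and 110 CPM and VDR-KD legs 39.7, 81.1 and 131 CPM. The ranges of the VDR-OE arm overlapped, with 5 of 7 empty vector legs above every VDR-OE leg. The fitted log2 difference was -1.04 (SE 0.21), a level 0.49 times that of the control leg.

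In 6 of 7 rats Gadd45a was lower in the VDR-OE leg, most in rat 416 (within-rat log2 ratio -2.03). Rat 422 had 75.6 CPM in its control leg and 86.6 CPM in its VDR-OE leg, a log2 ratio of 0.20. That leg also held the most Vdr of all, 5937 CPM.

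Eif4ebp1, the translational repressor, had the smallest difference of the 4 between VDR-OE and empty vector legs. Empty vector legs had 76.75, 95.4 and 115 CPM and VDR-OE legs 54.7, 61.6 and 76.3 CPM. Scramble legs had 61.75, 77.4 and 99.7 CPM and VDR-KD legs 54.4, 75.7 and 87.9 CPM. The empty vector and VDR-OE legs did not overlap, though by a gap under 1 CPM. The means were 94.7 ± 15.2 CPM and 62.4 ± 8.08 CPM (SD, n = 7 each), and the fitted log2 difference was -0.59 (SE 0.10), a level 0.66 times that of the control leg. It was lower in 7 of 7 rats, with log2 ratios from -1.04 in rat 420 to -0.30 in rat 417. In rat 422 the counts of Eif4ebp1 were 3139 of about 41250000 in the control leg and 3458 of about 45100000 in the VDR-OE leg. The fall in this rat, and the gap between the groups, thus rest on the normalisation factors. The 10 highest genes took 30.57% and 25.2% of the counts in these legs. Of the VDR-OE legs, 4 of 7 lay below every scramble leg, which held for 0 of the VDR-OE legs at the other 3 genes.

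Without rat 419 the fitted log2 differences were -1.39 for Atf5, -1.95 for Sesn2, -1.02 for Gadd45a and -0.61 for Eif4ebp1. Across the VDR-OE arm 1037 of 14526 genes (7.14%) passed an adjusted p of 0.05, of which 444 were lower in VDR-OE legs (3.06%). The VDR-OE legs lay wholly below the empty vector legs for 191 of these genes (1.31%), 3 of the 4 among them. Nothing is read from these shares for genes that the contrast itself selected.

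The rise of Vdr and the falls of the 4 genes are set side by side by rat. Vdr rose by 10.74 on the log2 scale in rat 422, by 10.02 in rat 416, by 9.87 in rat 417, by 9.13 in rat 420, by 8.67 in rat 421 and by 5.68 in rat 418, and the log2 ratio was -0.08 in rat 419. Rat 422 had the smallest fall of Sesn2 (-0.85) and rat 416, second in the rise of Vdr, the largest falls of Sesn2 (-2.79) and Gadd45a (-2.03). Rat 418, with the smallest rise of the 6, had a Sesn2 ratio of -2.21. No correlation was tested, since the same legs selected the genes.

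**Figure D2:**
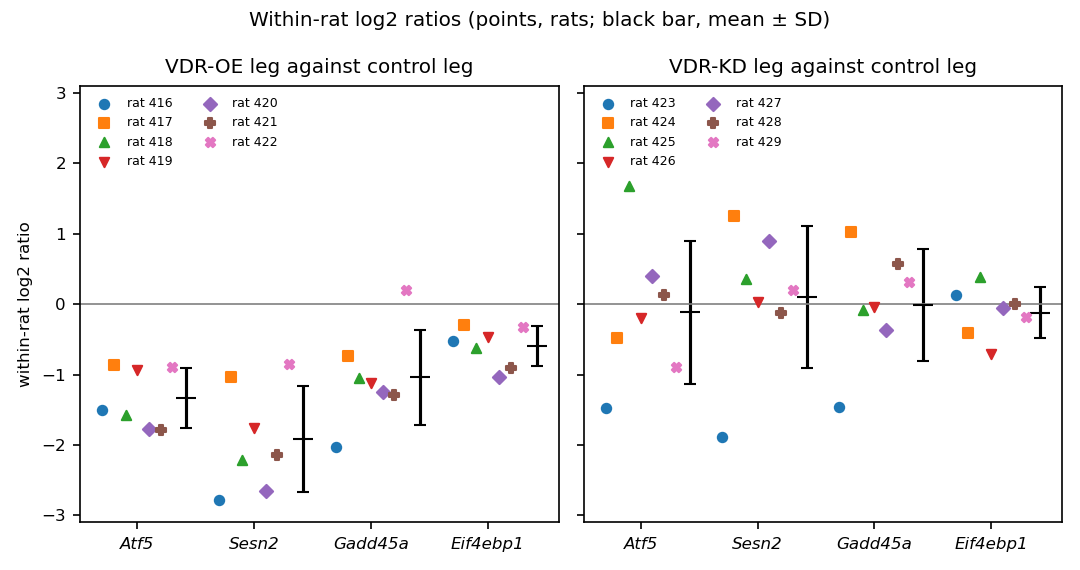
Within-rat log2 ratio (vertical axis) of the treated to the control leg for each gene, with 1 symbol per rat and a black bar for the mean ± SD of 7 rats, in the VDR-OE arm (left) and VDR-KD arm (right). Of 28 ratios in the VDR-OE arm 1 is above 0, Gadd45a in rat 422, while those of the VDR-KD arm lie on both sides of 0.

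The VDR-KD arm asks whether hairpin RNA against VDR moved these genes. No difference between VDR-KD and scramble legs was detected for any of the 4, nor for any gene tested. The call threshold was passed by 0 of 14652 genes (0%) in edgeR's quasi-likelihood test, with 395 at an unadjusted p under 0.05. The likelihood ratio test and DESeq2 also called 0 genes, with 401 and 625 at that unadjusted p.

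For Atf5 the fitted log2 difference was -0.12 (95% interval -0.88 to 0.63, adjusted p = 0.906), with 4 of 7 rats lower in the VDR-KD leg. For Sesn2 it was 0.14 (-0.62 to 0.90, adjusted p = 0.895), with 2 rats lower. For Gadd45a it was 0.0096 (-0.60 to 0.62, adjusted p = 0.993), with 4 rats lower. For Eif4ebp1 it was -0.11 (-0.41 to 0.18, adjusted p = 0.808), again with 4 rats lower. Changes inside these intervals could have been missed, and a Vdr that was not lowered limits what the arm can show. An exact sign-change permutation test of the 7 within-rat ratios, two-sided with a smallest possible p of 0.0156, gave 0.781 for Atf5, 0.797 for Sesn2, 1.0 for Gadd45a and 0.406 for Eif4ebp1, and 1.0 for each after adjustment over the 4.

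Single rats of this arm moved in either direction. In rat 423 the scramble leg held 99.7 CPM of Atf5, 29.6 CPM of Sesn2 and 110 CPM of Gadd45a, the highest scramble values of each. Its VDR-KD leg was lower by a log2 ratio of -1.47 for Atf5, -1.89 for Sesn2 and -1.46 for Gadd45a, with Eif4ebp1 at 0.13. Rat 424 went the other way for Sesn2 (1.25) and Gadd45a (1.03), and rat 425 for Atf5 alone (1.69), which reached 124 CPM in its VDR-KD leg while Sesn2 there was at 25.2 CPM. Without rat 425 the fitted difference of Atf5 was -0.40 (adjusted p = 0.446). The SD of the within-rat log2 ratio was 1.01 for Atf5, 1.005 for Sesn2, 0.79 for Gadd45a and 0.36 for Eif4ebp1, against 0.42, 0.75, 0.67 and 0.28 in the VDR-OE arm.

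Comparisons between the arms use the legs that selected the genes, so their values are given without a test. Empty vector minus scramble gave log2 differences of 1.23 (SE 0.29) for Atf5, 1.85 (SE 0.34) for Sesn2, 0.79 (SE 0.28) for Gadd45a and 0.27 (SE 0.12) for Eif4ebp1. The ranges of these groups overlapped for each gene. This comparison is between rats, and vector, hairpin, rat and any unrecorded batch cannot be told apart. Of 14458 genes 4 passed the adjusted threshold (0.0277%), with 3364 at an unadjusted p under 0.05. The leg effect of the VDR-OE arm minus that of the VDR-KD arm was -1.20 (SE 0.38) for Atf5, -2.06 (SE 0.44) for Sesn2, -1.05 (SE 0.37) for Gadd45a and -0.48 (SE 0.17) for Eif4ebp1. Here 0 of 15112 genes passed (0%), with 1099 at an unadjusted p under 0.05 and 18 genes called by the likelihood ratio test. Vdr itself, at 8.80 (SE 1.46), did not pass in the quasi-likelihood test (adjusted p = 0.218). A count of 0 therefore does not show that no gene differed between the arms. The 3 comparisons share the empty vector legs or the legs of the VDR-OE arm and are not independent of each other or of the selection.

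Markers of macrophages and fibroblasts had their lowest median sums in the empty vector legs, with ranges that overlapped those of the other groups. The summed level of the 4 macrophage markers with an identifier (of 8 listed) ranged from 124 to 454 CPM in empty vector, 319 to 1019 CPM in VDR-OE, 301 to 1127 CPM in scramble and 250 to 1699 CPM in VDR-KD legs. That of the 5 fibroblast markers, all identified, ranged from 590 to 2081, 877 to 3340, 1223 to 3798 and 1009 to 3473 CPM in the same order. In empty vector minus scramble 0 of these macrophage and fibroblast markers passed the adjusted threshold, where 4 of 14458 genes did. None of the listed endothelial, satellite cell, Schwann cell, adipocyte or erythrocyte markers had an identifier. In the VDR-OE arm the 5 fibroblast markers and 3 of the 4 macrophage markers were called higher in VDR-OE legs, opposite in direction to the 4 genes, where 593 of 14526 genes tested and 537 of the 1880 with a symbol were called higher. Symbols came only from a table of the genes of smallest p in this same comparison, so these counts are not independent evidence. The part of these cells in the result was not tested.

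Muscles high for one gene were mostly high for the others among the empty vector legs. There Pearson's r of log2 CPM over 7 legs was 0.94 for Atf5 with Sesn2, 0.92 for Sesn2 with Gadd45a, 0.83 for Atf5 with Gadd45a and 0.82 for Atf5 with Eif4ebp1. It was lower for Sesn2 with Eif4ebp1 (0.72) and Gadd45a with Eif4ebp1 (0.56). These legs helped to select the genes, and the values are a description. Over the VDR-OE legs r ranged from 0.10 for Atf5 with Eif4ebp1 to 0.70 for Sesn2 with Gadd45a.

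In the legs outside the comparison that selected the genes no pair reached the threshold. The highest r over scramble legs was that of Sesn2 with Gadd45a, 0.70 (exact permutation p = 0.0766, adjusted over 6 pairs 0.459, n = 7; Spearman's rho 0.57, p = 0.20, adjusted 0.60). It was -0.21 without the 2 legs farthest from the median of Sesn2. The value thus depends on those legs, though leaving them out also narrows the range of Sesn2. The other 5 pairs had r from -0.42 for Sesn2 with Eif4ebp1 to 0.49 for Atf5 with Gadd45a, with adjusted p of 0.714 or more by exact permutation. Over VDR-KD legs the same pair again had the highest r, 0.65 (exact permutation p = 0.151, adjusted 0.556, n = 7), with rho 0.29 (p = 0.556, adjusted 0.794). Without the 2 farthest legs it was 0.019. Over all 28 muscles r was 0.85 for this pair and 0.80 for Atf5 with Sesn2, which includes the difference between empty vector legs and the rest.

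**Figure D3:**
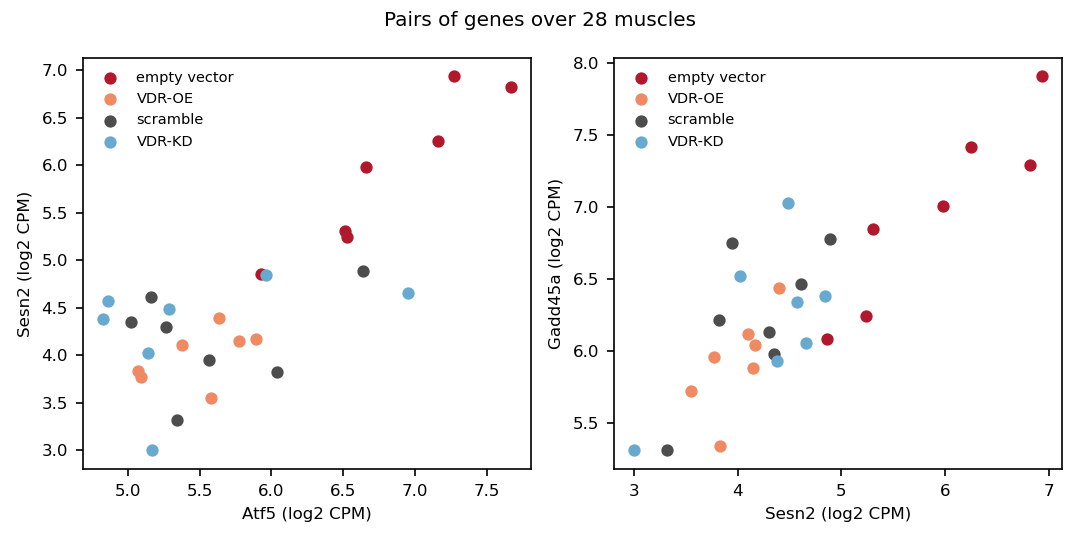
Log2 CPM of Sesn2 against Atf5 (left) and of Gadd45a against Sesn2 (right), 1 point per muscle, coloured by group. Pearson's r over the 7 empty vector legs is 0.94 (left) and 0.92 (right), and the lowest of these legs lie among muscles of the other groups.

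The genes whose pattern over the 28 muscles was most like each of the 4 were ranked by Pearson's r of log2 CPM over all tested genes. For Atf5 they were Cebpg (0.92), Aars (0.92), Mars (0.91), Cyp4b1 (0.90) and Zfp598 (0.89). Cebpg encodes a partner of ATF4, and Aars and Mars charge tRNA with alanine and methionine. Cebpg followed Atf5 within empty vector (0.95), scramble (0.96) and VDR-KD legs (0.90), but r was -0.29 over VDR-OE legs. For Sesn2 they were Casp4 (0.94), an inflammatory caspase, Ppef1 (0.93), Nars (0.93), which charges tRNA with asparagine, Trib3 (0.93), a pseudokinase induced by ATF4, and Yars (0.93). Casp4 followed Sesn2 with r of 0.97, 0.69, 0.99 and 0.93 over empty vector, VDR-OE, scramble and VDR-KD legs, and Trib3 with 0.99, 0.94, 0.84 and 0.82.

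For Gadd45a the 5 closest included Slc17a3 (0.86), the glycine transporter gene Slc6a9 (0.85) and Akip1 (0.85), beside a gene without a symbol and a gene with a clone-based name. Slc17a3 had r of 0.69, 0.69, 0.96 and 0.92 in the 4 groups in the order above. Eif4ebp1 was most like Ghitm (0.89), Nop16 (0.89), Eefsec (0.89), Rad23b (0.88) and Prmt7 (0.87). Eefsec, the elongation factor for selenocysteine, followed it with r of 0.90, 0.64, 0.93 and 0.93. Muscles share depth and group in these values, and the like genes were picked as the highest of all, so no p is given.

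Other genes of the response moved in the same direction as the 4 in the VDR-OE arm. Of the list of 52 eIF2 kinases, eIF2 subunits and ATF4 targets, 23 could be identified, because symbols came only from the 1998 genes of smallest p that the study tabulated for this same comparison. Counts over named genes in the VDR-OE arm are therefore not independent evidence, and Atf4 itself, along with Sesn1, Sesn3, Gadd45b, Gadd45g, Eif4ebp2 and Eif4ebp3, had no identifier. In VDR-OE legs 17 of the 23 fell and 2 rose, with a median log2 difference of -0.91, against -0.0034 over all genes tested and 0.48 over the 1880 tested genes with a symbol, of which 405 fell and 537 rose.

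Fgf21, a hormone that muscle releases under mitochondrial stress, had the largest fall of the list, with a log2 difference of -4.97 (SE 0.40, adjusted p = 0.0065). Trib3 fell by 3.44 (SE 0.50), the cystine transporter gene Slc7a11 by 2.20 (SE 0.35) and Asns, which makes asparagine, by 1.84 (SE 0.30). In VDR-OE legs Fgf21 had 10 to 27 counts and Slc7a11 3 to 33, near the count of 10 used as the filter. Empty vector legs had 151 to 1644 counts of Fgf21 and 39 to 178 of Slc7a11. The circulating stress signal Gdf15 fell by 1.38 (SE 0.23), Pycr1 of proline synthesis by 0.91 (SE 0.18) and Slc3a2, the heavy chain of amino acid transporters, by 0.70 (SE 0.12). Cebpg fell by 0.69 (SE 0.10), Eif2b3, a subunit of the eIF2 exchange factor, by 0.61 (SE 0.10) and Shmt2 of mitochondrial serine metabolism by 0.46 (SE 0.09).

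Eif2ak3, which encodes the eIF2 kinase PERK, rose by 0.50 on the log2 scale (SE 0.11, adjusted p = 0.0365), and so did Rab32 (1.01, SE 0.25), named after its values were seen. The stress factor genes Atf3 (-0.98, SE 0.29, adjusted p = 0.066) and Ddit3 (-0.47, SE 0.17, adjusted p = 0.0977) did not pass, nor did Mthfd2 and Slc7a1, named after their values were seen. These calls were made by edgeR's quasi-likelihood test and depended on single rats. The list had 0 to 21 genes called when each rat was left out in turn, with 10 called without rat 419 and 0 without rat 418 or rat 421. The count over all genes ran from 0 without rat 421 to 4768 without rat 416.

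In the VDR-KD arm 0 of the 23 listed genes passed, 0 of them at an unadjusted p under 0.05, with a median log2 difference of 0.063 against 0.0094 over all genes tested. Fgf21 was at -0.41 (SE 0.93), Trib3 at 0.34 (SE 0.79), Asns at 0.08 (SE 0.54) and Ddit3 at 0.15 (SE 0.18). Empty vector minus scramble gave a median of 0.73 over the 23, with 21 above 0 and 0 called at the adjusted threshold.

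**Figure D4:**
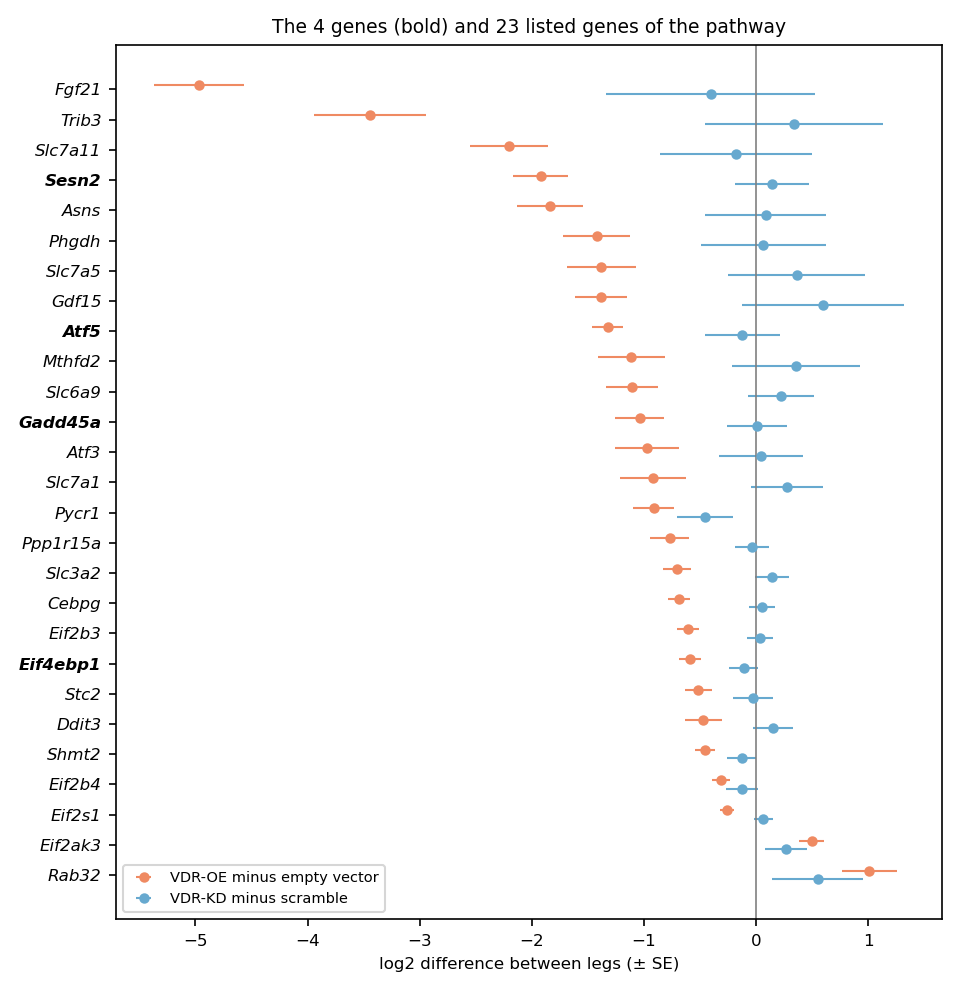
Log2 difference between the legs (horizontal axis, ± SE from the fit) of the 4 genes, in bold, and 23 identified genes of the response, for VDR-OE minus empty vector (orange) and VDR-KD minus scramble (blue). The orange points lie below 0 except for Eif2ak3 and Rab32, and the blue points gather around 0.

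Cytosolic aminoacyl-tRNA synthetases, which load amino acids on tRNA and are ATF4 targets as a group, fell in 14 of 14 identified genes of 20 listed. For this and the next lists, 444 of 14526 genes tested (3.06%) and 405 of the 1880 with a symbol fell, and genes could be identified only through the table of smallest p in this comparison, so the counts are not independent evidence. The median log2 difference of the synthetases was -0.59, with Nars at -0.65 (SE 0.10), Sars at -0.70 (SE 0.11) and Mars at -0.65 (SE 0.11). The mitochondrial chaperone and protease genes Lonp1 (-0.79, SE 0.13), Hspa9 (-0.60, SE 0.10) and Hspe1 (-0.34, SE 0.08) fell, 3 of 3 identified of 10 listed. On the branch of the unfolded protein response run by ATF6 and XBP1, 3 of 6 identified genes fell and 2 rose. Among them Herpud1 fell by 0.55 (SE 0.09) and Ern1 by 0.64 (SE 0.12), whereas the protein disulfide isomerase gene Pdia4 was at 0.47 (SE 0.10). Of p53 targets, a group to which Gadd45a and Sesn2 also belong, 2 of 3 identified genes fell, Aen (-0.59, SE 0.11) and Tp53inp1 (-0.73, SE 0.17), while the third, Ckap2, named after its values were seen, was at 0.62 (SE 0.19, adjusted p = 0.0759). Of 36 genes of mTORC1 and its amino acid sensors only Mios was identified (-0.36, SE 0.10, adjusted p = 0.0512). None of the 20 genes listed for denervation and atrophy had an identifier. In the VDR-KD arm 0 genes of these lists passed, and 0 did so at an unadjusted p under 0.05, where the synthetases had a median of -0.06.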

How the data were processed

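The 4 genes and all gene lists were chosen with earlier results of these data known. The authors deposited raw counts per gene and muscle, without normalisation, from paired-end reads of 75 bases that were trimmed with trimmomatic and aligned and counted with Rsubread on rat genome version 6.0, Ensembl release 89. FastQC 0.11.5 and edgeR 3.18.1 are in the submitters' processing notes. Whether counting used strand is not given in the sources used here.

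Muscles were grouped by VDR status and paired by animal. A gene was tested where at least 7 muscles passed the CPM to which a count of 10 amounts in the median library, 0.239 in the VDR-OE arm and 0.251 in the VDR-KD arm. Each arm was fitted with edgeR 4.0.16 in R 4.3.3 (TMM normalisation, quasi-likelihood F test, Benjamini-Hochberg adjustment over all genes tested), with the rat as a block. The methods name edgeR's glmFit, whose likelihood ratio test was kept as an alternative beside DESeq2 1.42.0. The scripts were tested on simulated data. Log2 CPM used a prior count of 0.5. Exact permutation tests ran in SciPy 1.17.1. Deviations of the legs of 1 rat from their group means had a mean correlation of 0.24 in the VDR-OE arm and -0.11 in the VDR-KD arm. The pairing itself comes from the animal labels. The lowest chi-square per degree of freedom between muscles of a group was 28.5, so none looked like a library deposited more than once.

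Symbols were paired with 1998 of 32883 identifiers, through the study's supplementary gene table, whose fold changes and p-values were not used. Genes named were the 4, Vdr, their relatives, Atf4, Ddit3, Trib3, Asns and the eIF2 kinases. To these were added from the same list the 8 others of lowest p in the VDR-OE arm and 4 in the VDR-KD arm, from each other list up to 3 per arm, all among those past the threshold, and the 5 genes most like each of the 4. RNA came from separate muscles. With the rat as a block, p-values measure the spread between rats in the difference between legs. For empty vector against scramble they measure the spread of levels between rats. The labels name a pCAGGS backbone for the VDR construct and the methods pCMV6.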

Additional observations from a re-analysis of the deposited data

Results flagged for a closer look

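Of 24 sets of 7 values examined (the CPM of the 4 genes in each group and their within-rat log2 ratios in each arm) 1 held a value far from the others. Atf5 in the VDR-KD leg of rat 425 was at 123.9 CPM, with the next highest VDR-KD leg at 62.4 CPM. The gap was 0.643 of the whole range of the group, above Dixon's critical value for 7 samples. Levels were examined as CPM and not as the log2 CPM used for the correlations, so the flag can depend on the scale. Chance alone flags about 1 in 20 sets. Sesn2, Gadd45a and Eif4ebp1 of the same muscle, at 25.2, 66.5 and 81.0 CPM, lay inside the ranges of their group.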

How the results depend on the processing

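In the VDR-OE arm the log2 differences of the 4 genes kept their sign under every alternative. Leaving out each rat gave -1.40 to -1.24 for Atf5, -2.10 to -1.78 for Sesn2, -1.24 to -0.88 for Gadd45a and -0.63 to -0.50 for Eif4ebp1. In the VDR-KD arm no gene of the 4 was called under any alternative. There leaving out each rat gave -0.40 to 0.094 for Atf5, -0.054 to 0.43 for Sesn2, -0.17 to 0.24 for Gadd45a and -0.19 to -0.02 for Eif4ebp1, with sign changes for the first 3 of these.

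The count of genes called in the VDR-OE arm, 1037, was 887 without the replicate block, 2262 with the likelihood ratio test, 2767 with DESeq2 and 229 in a fit of all 28 muscles. It was 4768 without rat 416, 149 without 417, 1 without 418, 209 without 419, 4 without 420, 0 without 421 and 416 without 422. The cause was not tested. Of the 23 pathway genes 6 were called in the fit of all 28 muscles and 0 to 21 with 1 rat left out. For empty vector against scramble the count was 441 with the likelihood ratio test, 12 with RLE factors, 7 without a filter and 0 to 787 with 1 rat left out. For the difference between the arms it was 18 with the likelihood ratio test, 1 without a filter and 0 to 1 with 1 rat left out. The VDR-KD count stayed at 0 throughout, with 0 to 0 when rats were left out. Without the 2 farthest scramble legs r turned to -0.54 for Atf5 with Sesn2, -0.17 for Atf5 with Eif4ebp1 and -0.21 for Sesn2 with Gadd45a. No gene of the 4 was limited by depth.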
